A study of Mus musculus with 21 samples.

Results

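A set of 9 mature miRNAs that are known from blood cells, immune cells and the vessel wall were followed in the developing mouse auditory system. They were chosen by name. The red cell miRNAs were mmu-miR-451a, mmu-miR-144-3p and mmu-miR-486a-5p, the white cell miRNAs were mmu-miR-142a-3p, mmu-miR-142a-5p, mmu-miR-223-3p and mmu-miR-150-5p, and the endothelial miRNAs were mmu-miR-126a-3p and mmu-miR-126a-5p, written without the species prefix from here on. Of these 9, 7 had a row among the 1647 mature miRNAs of the count table. For miR-486a-5p and miR-126a-5p no row was analysed here.

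Small RNA was sequenced from the cochlea (10 libraries) and from the superior olivary complex, the auditory brainstem nuclei abbreviated SOC (11 libraries), at E16 (embryonic), P0 (the day of birth) and P16 (after hearing onset). From E16 to P16 the stages held 2, 4 and 4 cochlear libraries and 4, 4 and 3 SOC libraries. All animals were wild type (WT) and untreated, of strain C57BL/6JOlaHsd for the cochlea and C57Bl6/J for the SOC, and each library pooled tissue of several animals. Both sexes were used, but for the SOC embryos at E16 the sex is not stated. Cochlear samples were sensory epithelium taken with the Direct-zol kit and made into SMARTer smRNA-Seq libraries, while the SOC region was cut from frozen tissue, extracted with the innuPrep miRNA kit and made into TruSeq Small RNA libraries. Organ, strain and kit therefore cannot be told apart, so stages were tested within an organ, and levels of the organs that stand side by side are descriptions. The methods describe no perfusion of the animals, so blood could remain in the vessels of every sample. For the SOC, whole heads were frozen at E16, while at P0 and P16 the brain was taken out of the skull before freezing. The P0 animals were decapitated, and the P16 animals were killed with carbon dioxide first. Within the SOC, stage and this handling therefore cannot be told apart. In bulk tissue, fewer cells of a type and less RNA per cell cannot be told apart.

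These miRNAs are used as markers because each is made mainly in a few blood or vessel cell types. miR-144 and miR-451a come from a single erythroid transcript, and miR-451a is matured by Argonaute 2 without Dicer. miR-142a is found across blood cell lineages, miR-223 is a myeloid miRNA of granulocytes and monocytes, miR-150 rises as B and T lymphocytes mature and represses Myb, and miR-126a is processed from the endothelial gene Egfl7.

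RefSeq held the mature sequences of 6 of the 7 miRNAs on build GRCm38.p6. They are shown because the arms of miR-144 and of miR-142a behaved differently between libraries, and the reader can see which strands were counted. Capitals mark the seed, bases 2 to 8 from the 5′ end. The partner arm miR-144-5p is included.
miR-451a: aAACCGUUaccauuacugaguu
miR-144-3p: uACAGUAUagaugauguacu
miR-144-5p: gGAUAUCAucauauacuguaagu
miR-142a-3p: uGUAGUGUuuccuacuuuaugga
miR-142a-5p: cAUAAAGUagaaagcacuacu
miR-223-3p: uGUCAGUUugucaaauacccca
miR-126a-3p: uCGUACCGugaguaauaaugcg

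No seed was shared between these miRNAs or with another miRNA of the reference that was counted here. miR-144-3p lies at chr11:78073047-78073066 and miR-451a at chr11:78073186-78073207, both on the plus strand, and 198 bases span the miR-144-5p start to the miR-451a end. On the same chromosome and strand, miR-142a-5p lies at chr11:87756867-87756887 and miR-142a-3p at chr11:87756903-87756925, in an intron of the lincRNA Mir142hg. miR-223-3p lies at chrX:96242884-96242905 within an exon of F630028O10Rik. miR-126a-3p lies at chr2:26591402-26591423 inside Egfl7, where it overlaps an annotated exon on the same strand.

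The depth differed widely between the organs. A cochlear library held 124400 to 447419 counts and an SOC library 8309669 to 18053698. Levels are given as CPM, counts scaled to a common library size, and normalized by the trimmed mean of M values (TMM). In a cochlear library 3 counts, the limit that a count of 0 allows, stood for 6.71 to 24.1 CPM before TMM. Such limits and the intervals given here cover counting error only. The SOC libraries also fell into 3 sets by miRNAs outside the ones described here. Set A had more than 10% of its counts on miR-99b-5p (E16 replicates 2 and 3, P0 replicates 2 and 3), set C had less than 1% on miR-191-5p (P0 replicate 4, P16 replicates 2 and 3), and set B held the other 4 libraries. No label names these sets, and set C contains no E16 library. As a check of the labelled tissues, the neuronal miR-124-3p and miR-9-5p summed to 24419 to 115764 CPM in the SOC and to 263 to 2304 CPM in the cochlea, and 5 epithelial miRNAs of the miR-200 family to 17.9 to 540.4 CPM and 2101 to 21594 CPM. For other markers, the 3 hair cell miRNAs of the miR-183 family summed to 16684 to 55846 CPM in the cochlea while in the SOC they summed to 85032 to 164652 CPM at E16 and 521 to 3501 CPM at P16. The 3 counted muscle miRNAs summed to 113 to 292 CPM in the SOC at E16 and to 9.01 to 24.2 CPM at P16, against 474 to 549 CPM in the cochlea at E16 and 1097 to 4295 CPM at P16, with miR-133a-3p at 0 in every cochlear library. The part of these tissues in the results was not tested.

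The call differentially expressed (DE) required that the edgeR quasi-likelihood FDR was under 0.05, that the fold change was over 1.5 and that replicates of the compared stages did not overlap. The filter on low counts was passed by 6 of the 7 counted miRNAs in the cochlea and by all 7 in the SOC. In the cochlea miR-451a passed it through E16 alone, its only stage with counts. Against E16 it could therefore only be called repressed there. Between E16 and P0, the cochlea had 1 induced miRNA (miR-150-5p) and 5 repressed ones (miR-451a, miR-142a-3p, miR-142a-5p, miR-223-3p and miR-126a-3p), where 24.2% of all 896 miRNAs tested were DE, 7.70% induced and 16.5% repressed. Between E16 and P16, 1 was induced (miR-150-5p) and 2 were repressed (miR-223-3p and miR-451a), where 29.4% of all were DE, 10.8% induced and 18.5% repressed. From P0 to P16, 3 were induced (miR-150-5p, miR-223-3p and miR-126a-3p) and none was repressed, where 10.5% of all were DE, 3.91% induced and 6.58% repressed. The median log2 fold change of the 6 was -2.71, -1.17 and 1.63 in these comparisons, against 0, -0.09 and 0.05 over all miRNAs tested. The 6 include miR-451a, with 0 counts at P0 and P16, and miR-142a-5p, with 0 counts at P0. Their fitted changes depend on the prior count, so these medians are descriptions only. With library totals in place of TMM, the median of all miRNAs moved by -0.38 for P0 vs E16 and by -0.50 for P16 vs E16. The split of the calls into induced and repressed then moved from 69 and 148 to 37 and 195 for P0 vs E16, and from 97 and 166 to 65 and 215 for P16 vs E16.

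In the SOC, 1 of the 7 was DE between E16 and P0. This was miR-150-5p, which was induced and none was repressed, where 5.91% of the 694 miRNAs tested were DE, 2.02% induced and 3.89% repressed (14 and 27 called up and down, or 24 and 26 with library totals and 40 and 44 with DESeq2). Between E16 and P16, miR-150-5p and miR-451a were induced and miR-223-3p was repressed, where 41.2% of all were DE, 21.2% induced and 20% repressed. From P0 to P16 miR-150-5p was induced and none was repressed, where 15.9% of all were DE and 7.93% were called in each direction. The median log2 fold changes of the 7 were 0.36, 1.44 and 0.47, against 0.17, 0.08 and -0.15 over all miRNAs tested.

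**Figure D1:**
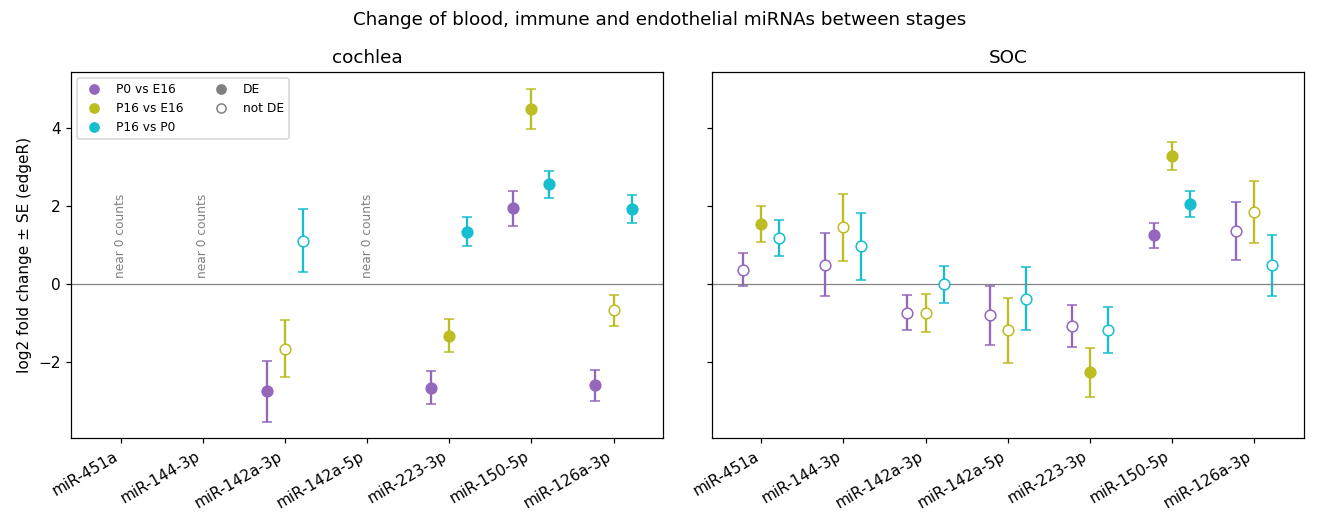
Log2 fold change (edgeR, y axis) of each miRNA (x axis) in the cochlea and the SOC for 3 comparisons of stages. Bars are ± SE, filled points are DE and open points are not. miR-451a, miR-144-3p and miR-142a-5p are left out for the cochlea because their counts are at or near 0, and miR-150-5p is above 0 in all 6 comparisons.

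Among the white cell miRNAs, miR-150-5p, known from lymphocytes, rose at every step in both organs. In the cochlea its level was 485 and 814 CPM in the E16 libraries. It was 1872, 2435, 2909 and 2747 CPM at P0, and 16833, 28761, 6652 and 5872 CPM at P16. The 3 stages did not overlap, and the P16 libraries spread the most. In replicate order, the P16 libraries had 3300, 3696, 1002 and 790 counts of miR-150-5p. The same libraries had 4, 0, 0 and 12 counts of miR-142a-3p and 3, 0, 1 and 0 of miR-142a-5p. Which cells carried miR-150-5p was not tested. The group means of miR-150-5p were 649.6 ± 233 CPM (SD, n = 2), 2491 ± 457 CPM (n = 4) and 14529.5 ± 10721 CPM (n = 4). The log2 fold change was 1.94 ± 0.45 (SE) for P0 vs E16 (edgeR FDR = 0.000236), 4.48 ± 0.52 for P16 vs E16 (FDR = 1.57e-15) and 2.54 ± 0.35 for P16 vs P0 (FDR = 5.97e-11). Without E16 replicate 1 the P0 vs E16 change was 1.63 and its call was lost (FDR = 0.0529).

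In the SOC miR-150-5p was at 62.8, 63.8, 79.4 and 88.0 CPM at E16. It reached 131, 194, 147 and 220.4 CPM at P0, and 798, 652 and 691 CPM at P16. Here too no library of a stage overlapped with another stage, and the means rose from 73.5 ± 12.3 CPM (SD, n = 4) to 173 ± 41.3 CPM (n = 4) and 714 ± 75.8 CPM (n = 3). The log2 fold changes were 1.24 ± 0.32 for P0 vs E16 (FDR = 0.0402), 3.28 ± 0.35 for P16 vs E16 (FDR = 0.000135) and 2.04 ± 0.34 for P16 vs P0 (FDR = 0.00297). The P0 call was lost, at a log2 fold change of 1.10 to 1.32, when any of the 4 E16 libraries, P0 replicate 2 or 3 or P16 replicate 2 or 3 was left out, and without the filter on low counts. Within the library sets, miR-150-5p at P0 was 2.38 times the E16 level in set A and 1.74 times in set B, and at P16 it was 10.6 times the E16 level in set B and 3.05 times the P0 level in set C. The organs' changes of miR-150-5p did not differ by the test of the interaction of organ and stage, where the SOC change minus the cochlear change was -0.82 ± 0.67 (SE, log2) at P0 (FDR = 0.413) and -1.37 ± 0.70 at P16 (FDR = 0.184).

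The myeloid miRNA miR-223-3p was lower than at E16 in the postnatal cochlea and at P16 in the SOC, and it rose from P0 to P16 in the cochlea. In the cochlea it was at 1367 and 1529.99 CPM at E16. At P0 it was at 193, 253, 231 and 233 CPM, and at P16 it was back at 729, 693, 511 and 364 CPM. Every P0 library was below every P16 library, and every P16 library was below the E16 libraries. Its log2 fold change was -2.67 ± 0.42 for P0 vs E16 (FDR = 1.08e-08), -1.33 ± 0.42 for P16 vs E16 (FDR = 0.00655) and 1.34 ± 0.37 for P16 vs P0 (FDR = 0.00392). With the replicate block the P16 vs E16 change was -1.19 and its call was lost (FDR = 0.0655).

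In the SOC miR-223-3p was low throughout, at 11.0, 10.3, 13.0 and 12.1 CPM at E16. P0 replicate 1 was at 12.2 CPM and the other 3 P0 libraries were at 3.42, 2.27 and 3.84 CPM, so that P0 overlapped with E16. At P16 the libraries were at 3.01, 1.17 and 2.97 CPM, which is 11 to 32 counts, all below E16. The log2 fold change was -2.28 ± 0.62 for P16 vs E16 (FDR = 0.0124), -1.08 ± 0.53 for P0 vs E16 (FDR = 0.248) and -1.19 ± 0.60 for P16 vs P0 (FDR = 0.172). The P16 call was lost without P16 replicate 2 (-1.90, FDR = 0.0624) and without the set C libraries (-1.78, FDR = 0.147). For P0 vs E16, leaving out P0 replicate 1 gave -1.84 and a DE call (FDR = 0.0354).

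Read against each other within a library, which needs no scaling, these white cell miRNAs shifted in the same direction in both organs. This ratio was picked after its values were seen and is given with no test. The miR-150-5p count was 0.355 and 0.532 times the miR-223-3p count in the cochlear E16 libraries, and the ratio was 9.62 to 12.6 at P0 and 13.0 to 41.5 at P16. In the SOC the ratio was 5.70 to 7.29 in E16 libraries, 10.8 to 64.8 at P0 and 233 to 559 at P16. In neither organ did the stages overlap.

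**Figure D2:**
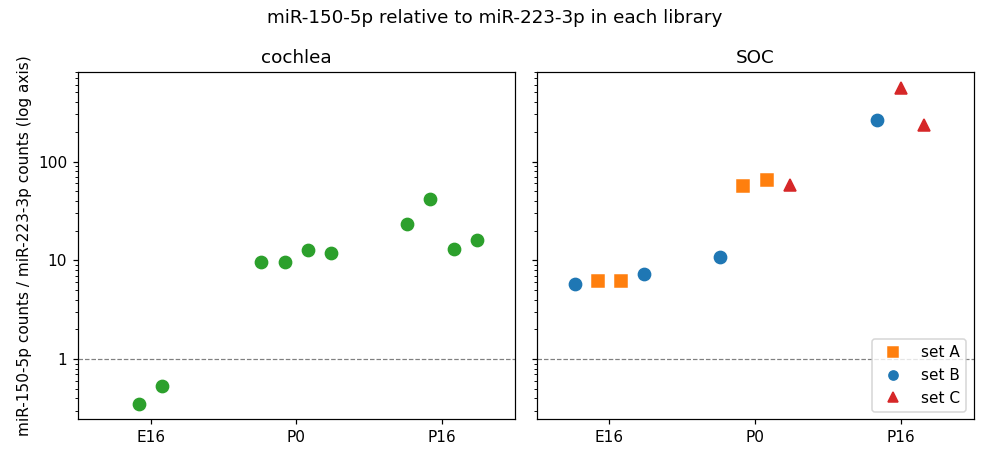
Ratio of miR-150-5p counts to miR-223-3p counts (y axis, log axis) in each library by stage (x axis), in the cochlea and the SOC. Each point is a library, and in the SOC the symbol gives its set. The ratio goes from 0.355 and 0.532 at E16 to at least 13.0 at P16 in the cochlea, and from at most 7.29 to at least 233 in the SOC.

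miR-142a, which blood cells of most lineages carry, was low in both organs. miR-142a-3p had 32 and 49 counts (87.1 and 85.1 CPM) in the cochlear E16 libraries. At P0 it had 3, 3, 1 and 2 counts, and at P16 it had 4, 0, 0 and 12 counts. Pooled over libraries, the E16 level was 6.95 times the P0 level (95% counting interval 3.49 to 15.8). The log2 fold change was -2.76 ± 0.78 for P0 vs E16 (FDR = 0.00331), -1.66 ± 0.74 for P16 vs E16 (FDR = 0.0669) and 1.10 ± 0.81 for P16 vs P0 (FDR = 0.383). At P16, replicate 4 held 12 of the 16 counts, at 89.2 CPM, the level of E16. Without replicate 4 the change for P16 vs E16 was -3.33 and DE, and that for P16 vs P0 was -0.57.

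miR-142a-5p had 5 and 7 counts in the cochlear E16 libraries. It had 0 in all 4 P0 libraries and 3, 0, 1 and 0 at P16. Against 3 counts over the P0 group, and without the counting error of the E16 counts, miR-142a-5p was 3.09-fold lower at P0 than at E16. DESeq2 gave it no adjusted p, and its edgeR call for P0 vs E16 (FDR = 0.0455) was lost without the filter on low counts, with the replicate block and without any of the 6 E16 and P0 libraries. In the SOC, miR-142a-3p was at 4.69 to 15.9 CPM at E16, 4.17 to 9.99 CPM at P0 and 5.83 to 7.27 CPM at P16. miR-142a-5p was at 20.5 to 59.0 CPM, 5.93 to 51.7 CPM and 6.04 to 32.4 CPM, and its highest library at each stage belonged to set B. The stages overlapped for both arms, and neither was DE in the SOC, with FDR from 0.219 to 0.988.

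The red cell miRNAs were near the limit of the cochlear depth. miR-451a had 4 and 9 counts (10.9 and 15.6 CPM) at E16 and 0 counts in all 8 postnatal cochlear libraries. Its pooled E16 level was 3.35 times the limit of 3 counts over the P0 group and 2.80 times that over the P16 group. The counting error of the E16 counts is not included, so these folds are not lower bounds. Both calls (edgeR FDR = 0.0363 and 0.0407) were given no adjusted p by DESeq2 and were lost without the filter on low counts, with the replicate block and without any single library of the later stage. Without either E16 library miR-451a did not pass the filter and could not be tested. miR-144-3p had 0 and 4 counts at E16 and 0 in every later library, did not pass the filter and allows no fold. Its partner arm miR-144-5p was deeper, at 54 and 89 counts (147 and 155 CPM) at E16. It fell to 0, 4, 0 and 1 counts at P0 and 6, 0, 1 and 0 at P16. Pooled over libraries, the E16 level of miR-144-5p was 22.1 times the P0 level (95% counting interval 9.25 to 69.1) and 13.2 times the P16 level (6.25 to 33.4), and it was repressed in both comparisons (log2 fold change -4.38 ± 0.81, FDR = 1.38e-06, and -3.73 ± 0.78, FDR = 1.55e-05).

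**Figure D3:**
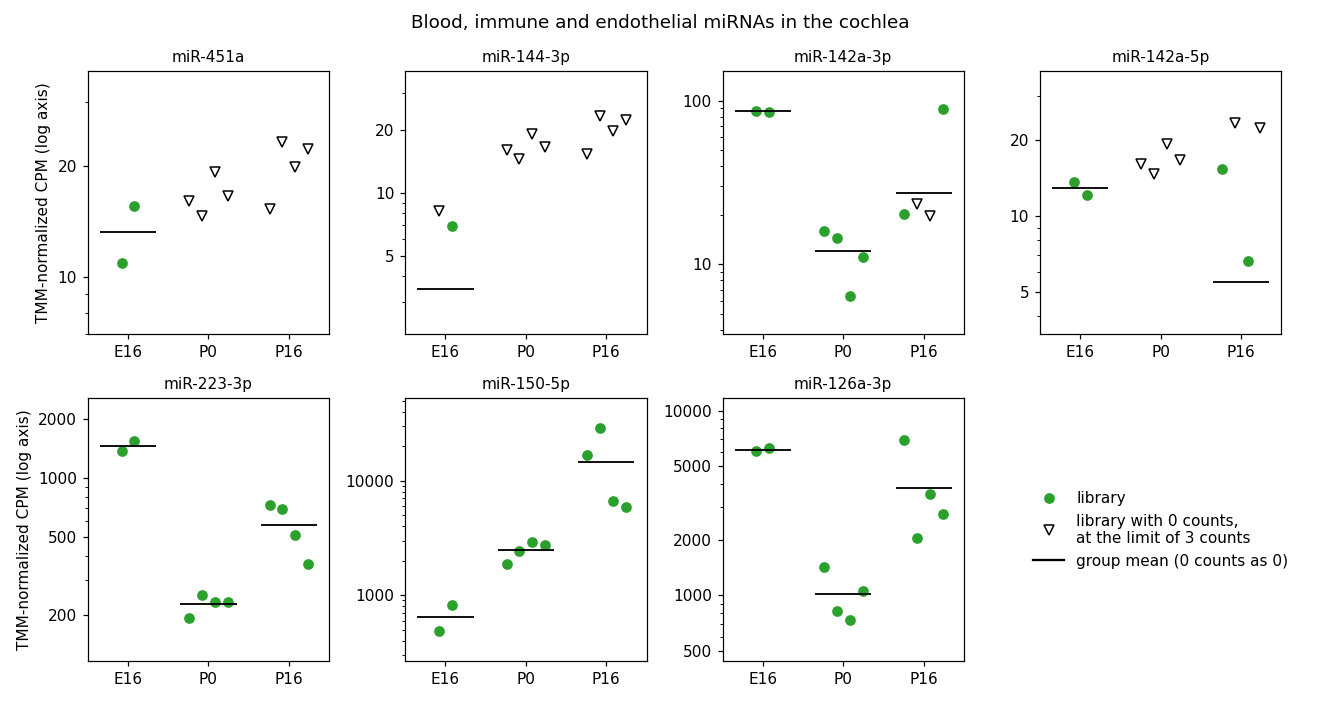
TMM-normalized CPM (y axis, log axis) of 7 miRNAs in each cochlear library by stage (x axis). Filled points are libraries, open triangles are libraries with 0 counts drawn at the limit of 3 counts, and lines are group means. miR-223-3p and miR-126a-3p are lowest at P0, miR-150-5p rises at each stage, and miR-451a has 0 counts after E16.

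In the SOC miR-451a was well counted, with 334 to 1612 counts per library. It was at 38.1, 42.0, 52.3 and 38.8 CPM at E16. At P0 it was at 50.6, 39.2, 26.2 and 104 CPM, and at P16 at 86.3, 128 and 154 CPM. All P16 libraries were above all E16 libraries, while P0 overlapped with both. The log2 fold change was 1.52 ± 0.46 for P16 vs E16 (FDR = 0.0195), 0.36 ± 0.43 for P0 vs E16 (FDR = 0.681) and 1.16 ± 0.46 for P16 vs P0 (FDR = 0.0937). A covariate for the library set gave 0.71 for P16 vs E16 (FDR = 0.0655), without the set C libraries it was 1.18 (FDR = 0.0445), and without P16 replicate 3 it was 1.38 (FDR = 0.0516). The set C library was the highest at P0. Within set B, miR-451a at P16 was 2.24 times the E16 level, in 1 and 2 libraries.

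miR-144-3p in the SOC was at 16.4, 5.17, 5.50 and 4.78 CPM at E16. It was at 6.38, 4.44, 2.43 and 31.6 CPM at P0 and at 5.55, 25.1 and 34.5 CPM at P16. The 3 libraries above 25 CPM were the 3 of set C. None of its comparisons was DE (FDR = 0.792, 0.198 and 0.457). Although both come from the same transcript, the ratio of miR-451a to miR-144-3p counts ranged from 2.32 to 15.6 over the SOC libraries.

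**Figure D4:**
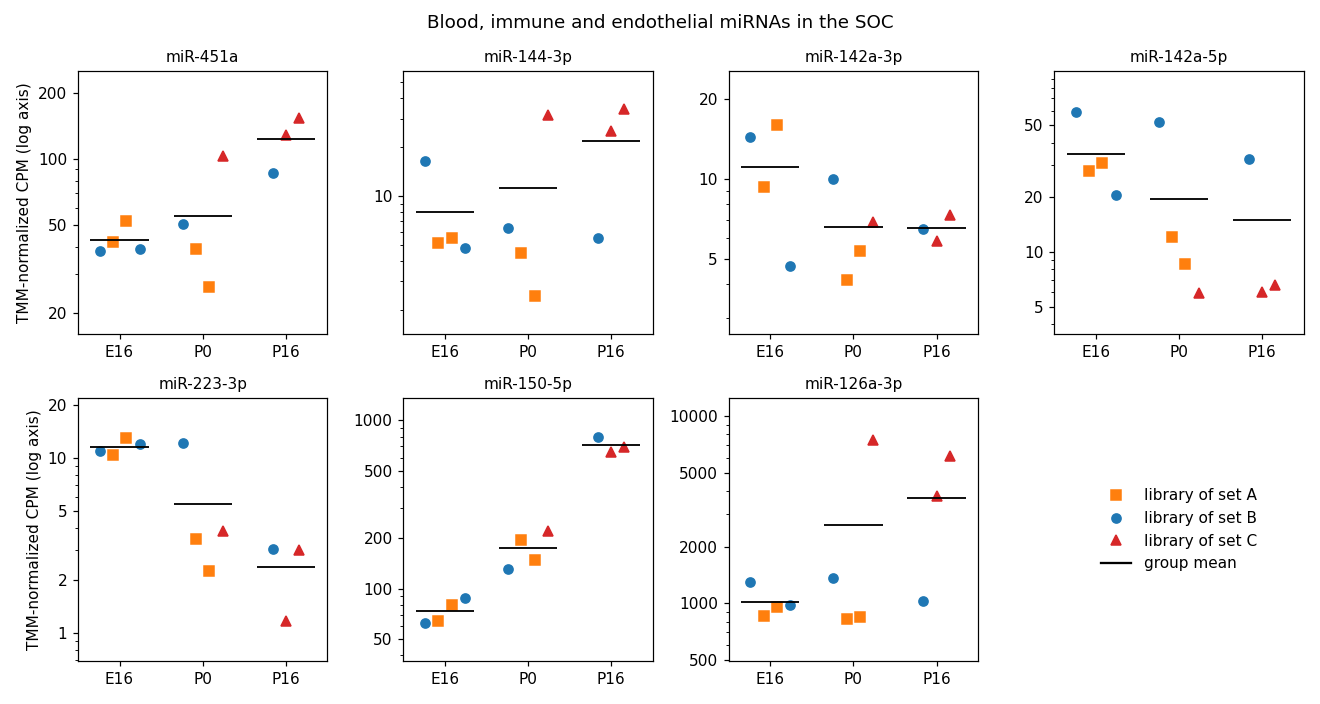
TMM-normalized CPM (y axis, log axis) of 7 miRNAs in each SOC library by stage (x axis). Symbols give the library set and lines the group means. miR-150-5p does not overlap between stages, while the libraries above 25 CPM for miR-144-3p and at 3735 CPM or more for miR-126a-3p are those of set C.

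The endothelial miRNA miR-126a-3p had the deepest counts of the 7 in the cochlea at E16. It was at 6040 and 6276 CPM in these libraries. At P0 it was at 1428, 823, 738 and 1063 CPM, and at P16 at 6968, 2047, 3538 and 2743 CPM. In TMM CPM, P0 was below both other stages in every library, and P16 overlapped with E16 through replicate 1. The log2 fold change was -2.60 ± 0.40 for P0 vs E16 (FDR = 4.70e-09), 1.92 ± 0.35 for P16 vs P0 (FDR = 1.68e-06) and -0.69 ± 0.40 for P16 vs E16 (FDR = 0.177). Without P16 replicate 1 the last was -1.16 and DE. With library totals in place of TMM, P0 and P16 overlapped and the P16 vs P0 call was lost at a log2 fold change of 1.92, while P16 vs E16 was DE at -1.12.

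In the SOC, miR-126a-3p was at 1302, 856, 951 and 981 CPM at E16. P0 replicates 1 to 3 were at 1361, 821 and 847 CPM and replicate 4 was at 7481 CPM. P16 replicate 1 was at 1028 CPM and replicates 2 and 3 were at 3735 and 6155 CPM. The 3 high libraries were those of set C, and the other 8 lay between 821 and 1361 CPM at all stages. The log2 fold changes of 1.36 ± 0.75 for P0 vs E16 (FDR = 0.321), 1.83 ± 0.79 for P16 vs E16 (FDR = 0.0813) and 0.47 ± 0.79 for P16 vs P0 (FDR = 0.694) were not DE. Without the set C libraries they were -0.00595, 0.18 and 0.18.

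Whether the change differed between the organs was tested in a single model of all 21 libraries, in which 11.9% of the 545 miRNAs tested in both organs differed at P0 and 16.9% at P16. For miR-126a-3p the log2 change from E16 to P0 was higher in the SOC than in the cochlea by 3.85 ± 0.97 (SE, FDR = 0.00987). This difference was 2.57 (FDR = 0.000271) with the library set as a covariate, 2.47 (FDR = 0.0226) without SOC P0 replicate 4, and 2.99 (FDR = 0.0615) with the replicate block. At P16 it was 2.37 ± 0.99 (FDR = 0.102). miR-451a also passed at both stages (FDR = 0.0175 and 0.00576), but its cochlear side rests on 13 counts at E16 and 0 later. It passed the cochlear filter through E16 alone, so its cochlear change could only be negative. Its passes are therefore not read as a result, and its size is not given as a bound. For P0 vs E16 the replicate block ended the call of miR-451a (FDR = 0.108). The other 4 miRNAs did not pass in the interaction test, with FDR from 0.143 to 0.894. For miR-223-3p the difference at P0 was 1.59 (FDR = 0.143), and it passed at 2.29 with library totals (FDR = 0.0259) and at 1.49 with the library set as a covariate (FDR = 0.0448).

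The arms of a hairpin come from the same precursor, so their ratio within a library needs no scaling. In the 8 SOC libraries of sets A and B, miR-144-3p had 0.259 to 0.571 times the counts of miR-144-5p. In the 3 libraries of set C it had 3.03, 3.20 and 4.39 times. For miR-142a the 3p count was 0.193 to 0.618 times the 5p count in sets A and B and 0.965, 1.10 and 1.16 times in set C. Set C did not overlap with sets A and B in either hairpin, whatever the stage. Within set B the P16 ratio of 0.461 for miR-144 lay inside the E16 range of 0.259 to 0.479. These hairpins were not alone. Of 160 hairpins with both arms at a mean of at least 20 SOC counts, the 3p to 5p ratio was higher in every set C library than in every other library for 30 and lower for 40. The 30 include miR-191, whose 5p arm was used to define set C, so its shift is not independent of the sets. The log2 ratio of miR-144 was higher by 3.16 in set C, which is place 30 by size, and that of miR-142a by 1.80, which is place 69, against a median size of 1.37 over all 160.

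**Figure D5:**
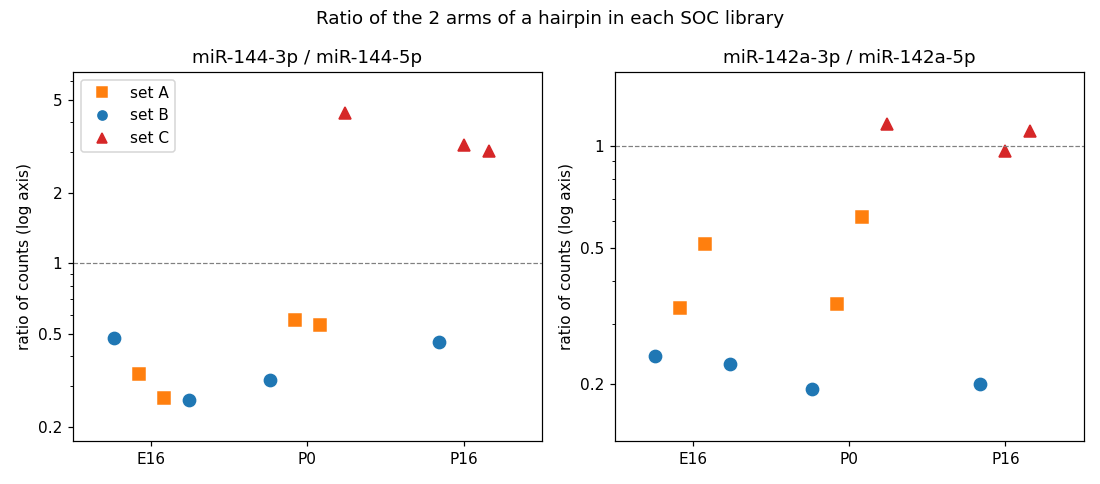
Ratio of 3p to 5p counts (y axis, log axis) for miR-144 and miR-142a in each SOC library by stage (x axis). Symbols give the library set and the dashed line marks equal counts. The 3 set C libraries lie at 3.03 to 4.39 for miR-144 and at 0.965 to 1.16 for miR-142a, above all other libraries.

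Of the 10 listed partner arms and copies of these miRNAs, 7 had a row. In the cochlea 6 were tested, with 1 repressed at P0 (miR-144-5p), 1 induced and 1 repressed at P16 vs E16 (miR-150-3p and miR-144-5p), and 1 induced from P0 to P16 (miR-150-3p). Over all miRNAs tested, 24.2%, 29.4% and 10.5% were DE in these comparisons, so these counts are not read as a result about the partner arms. miR-150-3p, the minor arm of miR-150, had 0 and 1 counts at E16 in the cochlea, 1 to 2 at P0 and 2 to 22 at P16. Its log2 fold change was 2.71 ± 0.85 for P16 vs P0 (FDR = 0.0122). In the SOC miR-150-3p had 3 to 23 counts at E16 and 52 to 98 at P16, a log2 fold change of 2.94 ± 0.64 (FDR = 0.00425). In neither organ did its E16 libraries pass the filter on low counts, so it was tested only through its later, higher stages. Its calls against E16 are therefore no support for those of miR-150-5p. miR-486a-3p, partner of the red cell miR-486a-5p, was at 2.34 to 4.60 CPM at E16 and 5.84 to 12.4 CPM at P16 in the SOC, a log2 fold change of 1.51 ± 0.45 (FDR = 0.0182). No other partner was DE in the SOC, where 5 were tested. For P16 vs E16, 2 of these 5 were induced, where 41.2% of all miRNAs tested were DE and 21.2% induced. This count is likewise not read as a result about the partner arms. miR-451b, antisense to miR-451a, had 0 counts in all SOC libraries.

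Of the 7 further white cell miRNAs, 6 were tested in each organ. In the cochlea miR-146a-5p, known from activated immune cells, was the sole call, 1 of 6 for P0 vs E16 where 24.2% of all were DE. It had 83 and 109 counts at E16 and 7, 18, 0 and 16 at P0 (log2 fold change -1.91 ± 0.52, FDR = 0.002). At P16 it was at 70.0 to 485 CPM, around the E16 levels of 189 and 226 CPM, and for P16 vs P0 its FDR was 3.23e-06 but the replicates overlapped. In the SOC miR-342-5p was induced for P16 vs E16 (1.73 ± 0.41, FDR = 0.00593), from 6.87 to 12.9 CPM at E16 to 27.4 to 36.6 CPM at P16, 1 of 6 where 41.2% of all were DE, and the other 5 were not. Its partner arm miR-342-3p was at 143.7, 70.4 and 50.1 CPM in the set C libraries and at 732 to 1850 CPM in all others.

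The 4 vessel wall miRNAs, the arms of miR-143 and miR-145a of smooth muscle and pericytes, were compared with the endothelial miR-126a-3p. In the cochlea miR-143-3p was at 1906 and 1964 CPM at E16, 353 to 1294 CPM at P0 and 1198 to 4219 CPM at P16. It was repressed at P0 (FDR = 0.00224), as was miR-145a-3p (-2.34 ± 0.57, FDR = 0.000432). miR-145a-5p was induced instead, from 1819 and 1950 CPM at E16 to 4101 to 4652 CPM at P0 (FDR = 0.0265) and 3397 to 10303 CPM at P16 (1.70 ± 0.45, FDR = 0.000943). Of the 4 tested in the cochlea, 1 was induced and 2 were repressed at P0 against E16, where 24.2% of all miRNAs tested were DE. At P16 against E16, 1 was induced, where 29.4% of all were DE. From P0 to P16 none was called, where 10.5% of all were. These counts of so short a list are not read as a result about the vessel wall. None of the 3 tested in the SOC was DE, where 5.91% to 41.2% of all were DE, depending on the comparison. miR-145a-5p was at 6.57 to 11.3 CPM in set C and at 74.2 to 274 CPM elsewhere, while miR-143-3p stayed at 13608 to 25314 CPM in all 11 libraries.

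The miRNAs with the most similar course over the libraries of an organ were found as those with the smallest root mean square difference of centred log2 CPM, among miRNAs that averaged 100 CPM or more in some stage. For miR-150-5p these were let-7b-3p (0.53), miR-6412 (0.62) and miR-184-3p (0.68) in the cochlea, over 10 libraries and 295 candidates with a median of 2.12. In the SOC they were miR-132-3p (0.28), miR-212-3p (0.32) and miR-212-5p (0.42), over 11 libraries and 211 candidates with a median of 1.57. miR-132-3p rose there from a mean of 182 CPM at E16 to 499 CPM at P0 and 1748 CPM at P16. For miR-126a-3p they were miR-148a-3p (0.33), miR-140-5p (0.37) and miR-384-5p (0.41) in the cochlea, and miR-16-5p (0.29), miR-181a-1-3p (0.36) and miR-101b-3p (0.42) in the SOC.

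For miR-451a in the SOC they were miR-744-5p (0.31), miR-380-3p (0.38) and let-7d-5p (0.43), and in the cochlea, where miR-451a has 13 counts in all, miR-324-5p (0.29), miR-598-3p (0.30) and miR-128-3p (0.31). For miR-142a-3p they were miR-214-5p (0.60), miR-96-3p (0.70) and miR-429-3p (0.79) in the cochlea and miR-708-5p (0.41), miR-421-3p (0.48) and miR-322-5p (0.48) in the SOC. The difference from a flat course was 0.79 in the SOC and 0.53 in the cochlea for miR-451a. For miR-142a-3p it was 1.27 in the cochlea and 0.59 in the SOC, so its SOC matches were little closer than a flat course. All libraries of an organ share kit and scaling, and the SOC values also carry the library sets, so these are descriptions only.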

How the data were processed

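Small RNA was sequenced in 21 mouse libraries, from cochlea and SOC at E16, P0 and P16. The authors deposited raw read counts of 1647 mature miRNAs per library, without normalization. The submitters' processing notes name Bowtie2 2.2.5, DESeq2 and mm10, while the methods name Bowtie and MirGeneDB. The table uses miRBase names, and the counting step is not given in the sources used here. All columns were matched to a sample.

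Counts were tested per organ with edgeR 4.0.16 in R 4.3.3 (TMM, quasi-likelihood F test, keeping miRNAs that exceeded 1 CPM in 2 or more replicates at some stage), with Benjamini-Hochberg FDR over all miRNAs tested. SE was derived as log2 fold change over the root of F. Folds against groups at 0 use 3 counts over the group and leave out the counting error of the other group. Low counts have exact conditional binomial intervals (95%). The script was tested on simulated data. DESeq2 1.42.0 was an alternative.

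Named were all counted members, every DE miRNA of the 3 lists, and the 3 closest miRNAs of 4 members. Members, lists and library sets were chosen with earlier results of these data known. The miR-150-5p to miR-223-3p ratio, the arm ratios and leaving out set C were chosen after seeing the data.

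Groups came from the sample titles. The methods call replicates biological. Replicate numbers recur across stages. In the SOC, deviations from the group means correlated for all 4 same-numbered pairs of E16 and P0 (r from 0.25 to 0.49). Of the 12 pairs of these stages with different numbers, 2 also had r over 0.1. These were E16 replicate 3 with P0 replicate 2 (r = 0.41) and E16 replicate 2 with P0 replicate 3 (r = 0.25), all of set A. Whether the numbers mark paired samples is therefore not established, and the main test used stage only. Same-numbered libraries of the other pairs of stages and of the cochlea (r from -0.60 to 0.55) were not taken as paired.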

Additional observations from a re-analysis of the deposited data

Results flagged for a closer look

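In 23 groups of 4 libraries with counts, 5 had a library far from the other 3 by Dixon's criterion, where chance gives about 1 in 20. In the SOC at P0, replicate 4 stood at 7481 CPM for miR-126a-3p against 821 to 1361 CPM in the others, and at 31.6 CPM for miR-144-3p against 2.43 to 6.38 CPM. This library is of set C. P0 replicate 1 stood at 51.7 CPM for miR-142a-5p against 5.93 to 12.1 CPM, and at 12.2 CPM for miR-223-3p against 2.27 to 3.84 CPM. At E16, replicate 1 stood at 16.4 CPM for miR-144-3p against 4.78 to 5.50 CPM. Both of these replicates are of set B.

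By the test of the interaction of organ and stage, the log2 change from E16 to P0 was higher in the SOC than in the cochlea by 3.85 for miR-126a-3p (edgeR FDR = 0.00987). For miR-451a the fitted differences were 7.69 at P0 (FDR = 0.0175) and 9.02 at P16 (FDR = 0.00576). These fitted sizes depend on the prior count, since all postnatal cochlear libraries had 0 counts of miR-451a. It passed the cochlear filter through E16 alone, so its cochlear change could only be negative and these differences are not read as a result.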

How the results depend on the processing

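Over 50 results, 1083 alternative values were computed, leaving out 4 to which DESeq2 gave no adjusted p and the cochlear and organ difference values of miR-451a without either cochlear E16 library, where it did not pass the filter. Of these, 1002 kept direction and call, 38 lost a call, 15 gained one and 28 reversed. Every reversal was in a comparison in which that miRNA was not called, though some of these miRNAs were called in other comparisons. miR-150-5p kept its direction throughout and its calls in every alternative except for P0 vs E16.

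The replicate block changed no call in the SOC (1 DE for P0 vs E16, 3 for P16 vs E16, 1 for P16 vs P0). In the cochlea, where same-numbered libraries were not taken as paired, the block left 1 of 3 calls for P16 vs E16 (miR-150-5p). The block also left 0 of 2 organ by stage calls at P0. It turned miR-144-3p in the SOC at P0 vs E16 to -0.19.

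Without the filter on low counts, 0 were DE in the SOC for P0 vs E16 (1 in the report). With library totals only, 5 were DE in the cochlea for P16 vs E16 (3), and 2 differed between organs at P16 (1). Leaving out a library gave 0 to 2 for SOC P0 vs E16, 2 to 6 for SOC P16 vs E16 (6 without P16 replicate 1), 1 to 2 for SOC P16 vs P0 (2 without P0 replicate 4 or P16 replicate 1), 3 to 6 for cochlea P0 vs E16 (3 without E16 replicate 1), 2 to 3 for cochlea P16 vs E16, 1 to 2 for the organ difference at P0 (1 without either cochlear E16 library) and 0 to 2 at P16.

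With the library set as a covariate, log2 changes reversed in the SOC to -0.0642 (miR-451a) and -0.70 (miR-144-3p) for P0 vs E16, -0.86 (miR-144-3p) and -0.36 (miR-126a-3p) for P16 vs E16, and -0.16 (miR-144-3p), 0.0103 (miR-142a-5p) and -0.43 (miR-126a-3p) for P16 vs P0. Without set C, an alternative added after seeing the data, they were -0.13 (miR-451a), -0.83 (miR-144-3p) and -0.00595 (miR-126a-3p) for P0 vs E16, -0.36 (miR-144-3p) and 0.0779 (miR-142a-5p) for P16 vs E16, 0.14 (miR-142a-3p) and 0.56 (miR-142a-5p) for P16 vs P0, and 0.69 for the organ difference of miR-142a-5p at P16 (0.24 with library totals). Leaving out a library gave -0.0819 to 0.50 (miR-451a) and -0.77 to 0.99 (miR-144-3p) for SOC P0 vs E16, -0.19 to 0.25 (miR-142a-3p) and -1.56 to 0.76 (miR-142a-5p) for SOC P16 vs P0, -0.57 to 1.57 (miR-142a-3p) for cochlea P16 vs P0, and -1.52 to 0.97 for the organ difference of miR-142a-5p at P16. The cause was not tested.

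Over all miRNAs, calls ranged from 22 to 101 for SOC P0 vs E16 (41 in the report), 62 to 247 for SOC P16 vs P0 (110), 113 to 249 for cochlea P0 vs E16 (217), 173 to 289 for cochlea P16 vs E16 (263), 31 to 169 (65) for the organ difference at P0 and 48 to 146 (92) at P16. Depth limits the cochlear values of miR-451a, miR-144-3p and miR-142a-5p, which had 0 counts in most libraries.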
